A study of Mus musculus with 6 samples.

Results

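The 33 genes described here encode enzymes of cholesterol synthesis and of fatty acid synthesis, with their transcriptional regulators, a cholesterol carrier and the cholesterol efflux machinery. They were chosen by gene symbol, and all 33 had a row among the 14912 genes of the deposited table. By role they were 17 sterol synthesis enzymes, 4 sterol regulators and carriers, 9 fatty acid synthesis enzymes and 3 genes of cholesterol efflux and its receptor LXR. The samples were bone marrow cultures of C57BL/6J mice with a wild-type (WT) genotype, grown with 50 ng/ml of the cytokine FLT3LG, which drives progenitors into dendritic cells, in medium renewed on day 7. In 3 cultures human recombinant midkine, a heparin-binding growth factor, was present at 10 ng/ml for the last 2 days, and 3 control cultures received none. RNA was profiled by 3′ end sequencing, which reads the ends of transcripts, from about 500 ng of total RNA per library. The comparison asks how midkine changes the transcripts of FLT3LG cultures, and here those of lipid synthesis. The labels do not say whether the 3 cultures of a group came from separate animals, so p-values rest on a spread between libraries that may be technical.

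Cells build cholesterol from acetyl-CoA through mevalonate, isoprenoid diphosphates, squalene and lanosterol, and build fatty acids from the same acetyl-CoA through malonyl-CoA. The SREBP transcription factors switch on both branches: they are made as precursors in the membrane of the endoplasmic reticulum, carried to the Golgi by Scap when sterols are low, cleaved there, and held back by the Insig proteins when sterols are high. The LXR receptors act at the other end of the balance, sensing oxysterols and switching on cholesterol export. In dendritic cells and macrophages these programmes feed membrane growth, proliferation and the handling of engulfed lipid.

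Library totals were 5685055 to 6453768 reads with midkine and 5089338 to 5532055 reads in controls, and 14649 to 14698 genes with midkine and 14664 to 14737 genes in controls had at least 1 read. Mitochondrial ribosomal RNA took 18.1% to 20.9% of the reads in midkine libraries and 9.33% to 9.86% in control libraries. Across the 33 genes the lowest sum of reads over 3 libraries was 45 with midkine and 61 in controls, so every one was measured above the limit that a count of 0 allows. Values below are normalised read counts, the deposited reads divided by a size factor per library. A gene is said to have risen or fallen where limma on log2(value + 1) gave a Benjamini-Hochberg adjusted p under 0.05 over the 11844 genes tested. Fold changes are log2 differences on that scale, midkine minus control, and n = 3 libraries per group throughout.

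Of the 33 genes, 27 fell with midkine, 1 rose and 5 did not pass the test. Over all genes tested 21.8% fell and 20.9% rose, and the median log2 fold change was -0.75 over the 33 genes and -0.01 over all genes. The 27 genes that fell did so by 1.31-fold to 2.38-fold, with standard errors of 0.08 to 0.23 on the log2 scale, and 23 of them had an adjusted p under 0.001. At least 2-fold falls were seen in 5 of the 33 (Acat2, Idi1, Fdps, Dhcr7 and Elovl6), against 3.84% of all genes tested. All 3 midkine libraries lay below all 3 control libraries for 27 of the 33 genes, against 26.2% of all genes, and above them for 1, against 25.1%.

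**Figure D1:**
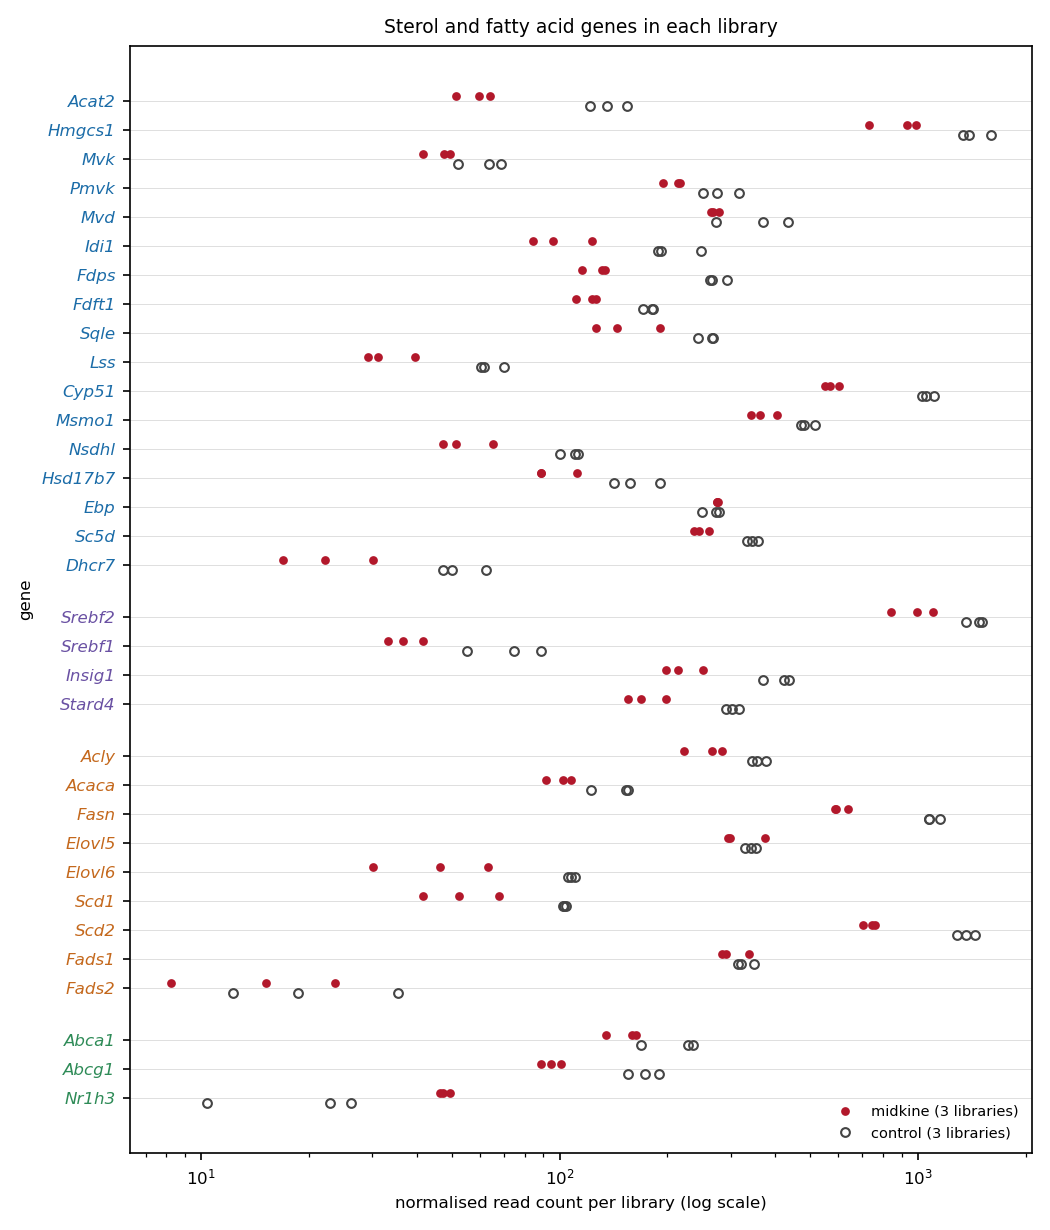
Normalised read count of each of the 33 genes in each library on a log scale, with midkine libraries as filled red points and control libraries as open circles. Genes are grouped by role, and for 27 of them the 3 midkine points lie left of the 3 control points.

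Transcripts on lists of cell type markers and cell cycle genes differed between the groups in the same libraries. Their counts stand beside 21.8% lower and 20.9% higher over all genes tested. All 20 cell cycle genes on a marker list fell, with summed counts of 6190 to 7344.5 with midkine and 12319 to 12660 in controls. Of 14 plasmacytoid dendritic cell markers tested 12 fell and 1 rose, with sums of 2491 to 2631 with midkine and 8270 to 8651 in controls. Of 14 type 1 conventional dendritic cell markers 11 fell and 2 rose, with sums of 36962 to 39078 with midkine and 45288 to 53387 in controls. Type 2 conventional dendritic cell markers were mixed, 6 higher and 4 lower of 12, with sums of 5252 to 5921 with midkine and 5270 to 5409 in controls. No marker with a row on these 3 dendritic cell lists was at 0 throughout a group, and Klk1 of the plasmacytoid list had no row. Reads of a bulk culture do not show which cells they came from, so this does not show that a cell type was present. Among markers of other cells, 7 of 9 stromal genes rose and 1 fell, with sums of 36273 to 39198 with midkine and 13904 to 17218 in controls. Of 14 macrophage genes 6 rose and 4 fell, with sums of 16714 to 18296 with midkine and 5888 to 8563 in controls. Gpnmb and Cd5l, named after their values were seen, made up most of the midkine sum, and the other 12 markers summed to 4051 to 4302 with midkine and 4298 to 5902 in controls, with 4 higher and 4 lower (C1qa, C1qb, C1qc and Mrc1). Neutrophil markers summed to 39.4 to 72.1 with midkine and 536 to 662 in controls, with 3 of 4 tested genes lower. Ly6g and Elane were at 0 in all midkine libraries, but both were under the minimum for testing. Ly6g had only 1 read over the 3 control libraries. B cell markers summed to 118 to 159 with midkine and 142 to 262 in controls, with 2 of 4 tested genes lower and Vpreb1 at 0 in all midkine libraries. In bulk cultures fewer cells of a type and less RNA per cell cannot be told apart, and the part of these shifts in the lipid genes was not tested.

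Among the regulators, all 4 genes fell, with a median log2 fold change of -0.85. Srebf2, which encodes the SREBP that mainly drives sterol genes, had counts of 1099, 840.3 and 995 in the midkine libraries, against 1511, 1362 and 1483 in the control libraries. The lowest control library was still above the highest midkine library, and the log2 fold change was -0.58 (SE 0.09, limma adjusted p = 8.75e-06). Srebf1, whose products mainly drive fatty acid genes, had counts of 41.7, 36.7 and 33.3 in the midkine libraries, against 88.8, 74.6 and 55.2 in the control libraries. The control libraries were spread more widely than the midkine libraries, but the groups did not overlap, with a log2 fold change of -0.93 (SE 0.20, limma adjusted p = 0.000422). Insig1, which retains the SREBP precursors and is itself an SREBP target, had counts of 214, 251 and 198 in the midkine libraries, against 436, 369 and 422 in the control libraries. Every midkine library was well below the lowest control library, and the log2 change was -0.89 (SE 0.11, limma adjusted p = 2.13e-07). Stard4, a soluble carrier that moves cholesterol between membranes, averaged 174 ± 21.99 counts with midkine and 304 ± 13.2 counts in controls (SD), a log2 change of -0.81 (SE 0.11, limma adjusted p = 1.6e-06).

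Of the 8 enzymes between acetyl-CoA and squalene 7 fell, with a median log2 fold change of -0.64. Acat2, which joins acetyl-CoA units at the entry of the pathway, had counts of 59.7, 64.1 and 51.5 in the midkine libraries, against 122, 135 and 154 in the control libraries. The control counts were all about double the midkine counts or more, and the log2 fold change of -1.22 (SE 0.15, limma adjusted p = 3.42e-07) was the lowest among the sterol enzymes. Hmgcs1, the synthase that makes HMG-CoA, had counts of 929.6, 729 and 985 in the midkine libraries, against 1599, 1336 and 1387 in the control libraries. Midkine replicate 2 was the lowest library and the groups stayed apart, with a log2 change of -0.72 (SE 0.10, limma adjusted p = 1.31e-06). The gene lies on chromosome 13 (GRCm38, 119690379 to 119708260, plus strand in GENCODE vM21).

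Mevalonate is then phosphorylated and decarboxylated by Mvk, Pmvk and Mvd, with log2 changes between -0.42 and -0.38. Mvk had counts of 41.7, 47.7 and 49.4 in the midkine libraries, against 51.9, 63.4 and 68.8 in the control libraries. Although no midkine library reached the lowest control library, the log2 fold change of -0.39 (SE 0.18, limma adjusted p = 0.0848) did not pass the threshold, with a 95% interval of -0.77 to -0.02. Over the other settings its adjusted p ran between 0.00642 and 0.268. Pmvk averaged 209 ± 12.01 counts with midkine and 281 ± 33.2 counts in controls (SD) and fell, with a log2 change of -0.42 (SE 0.11, limma adjusted p = 0.00279). Mvd had counts of 279, 264 and 267 in the midkine libraries, against 273, 370.4 and 435 in the control libraries. Control replicate 1 lay among the midkine libraries, so the groups overlapped. The log2 change of -0.38 (SE 0.12, limma adjusted p = 0.0135) was no longer called without control replicate 2 (-0.35, adjusted p = 0.0582), without control replicate 3 (-0.23, adjusted p = 0.155) or without the variance trend (adjusted p = 0.125), and over all settings its adjusted p lay between 0.000112 and 0.155.

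The 3 isoprenoid steps that follow all fell. Idi1, the isomerase that interconverts the isoprenoid building blocks, had counts of 123, 84.3 and 95.8 in the midkine libraries, against 248, 188 and 192 in the control libraries. The highest midkine library was well under the lowest control library, and the log2 change was -1.05 (SE 0.14, limma adjusted p = 1.46e-06). Fdps, which makes farnesyl diphosphate, the branch point towards sterols, ubiquinone, dolichol and prenylated proteins, had counts of 134, 115 and 131 in the midkine libraries, against 266, 293 and 264 in the control libraries. Libraries within each group were close to each other, with a log2 change of -1.11 (SE 0.11, limma adjusted p = 1.37e-08). Fdft1, squalene synthase and the committed step to sterols, averaged 120.1 ± 8.095 counts with midkine and 178 ± 6.22 counts in controls (SD), a log2 change of -0.57 (SE 0.12, limma adjusted p = 0.000436).

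Between squalene and cholesterol 8 of 9 enzymes fell, with a median log2 fold change of -0.77. Sqle, the epoxidase that is a controlled step of the pathway, had counts of 190.4, 126 and 144 in the midkine libraries, against 266, 269 and 244 in the control libraries. Midkine replicate 1 was the highest of its group and still below every control library, and the log2 change was -0.77 (SE 0.13, limma adjusted p = 2.37e-05). Lss, which closes the rings to lanosterol, averaged 33.3 ± 5.41 counts with midkine and 63.95 ± 5.12 counts in controls (SD), a log2 change of -0.93 (SE 0.19, limma adjusted p = 0.000364). Cyp51, the demethylase acting on lanosterol, had counts of 604, 568 and 549 in the midkine libraries, against 1106, 1054 and 1028 in the control libraries. Spread within the groups was small here, and the log2 change was -0.89 (SE 0.08, limma adjusted p = 1.82e-09).

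The enzymes that take methyl groups off the sterol ring all fell. Msmo1, a methyl sterol oxidase, averaged 369.7 ± 30.8 counts with midkine and 489.5 ± 23.2 counts in controls (SD) with a log2 change of -0.41 (SE 0.09). Nsdhl, the dehydrogenase of the same complex, averaged 54.7 ± 9.43 counts with midkine and 108 ± 6.59 counts in controls (SD) with a log2 change of -0.97 (SE 0.16). Hsd17b7, its keto reductase, averaged 96.6 ± 13.3 counts with midkine and 163 ± 25.02 counts in controls (SD) with a log2 change of -0.75 (SE 0.14). Their limma adjusted p-values were 0.000897, 2.24e-05 and 0.000112, and none of the 3 had overlapping groups.

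Of the late enzymes, Ebp, the isomerase that shifts the ring double bond, did not pass the test. It had counts of 277, 275 and 274 in the midkine libraries, against 250.3, 278 and 274 in the control libraries. The groups overlapped and the log2 change was 0.04 (SE 0.10, limma adjusted p = 0.753), with a 95% interval of -0.16 to 0.25. Its sign turned when libraries were scaled to their total counts (-0.21), where the median of all genes tested was -0.26. Sc5d, the desaturase of the next step, averaged 248 ± 12.5 counts with midkine and 345 ± 11.5 counts in controls (SD), a log2 change of -0.48 (SE 0.10, limma adjusted p = 0.000277). Dhcr7, the reductase that completes cholesterol in the Kandutsch-Russell branch, had counts of 16.9, 30.2 and 22.2 in the midkine libraries, against 47.2, 62.5 and 50.03 in the control libraries. These were among the lowest counts of the 33 genes, and the groups did not overlap, with a log2 change of -1.20 (SE 0.23, limma adjusted p = 0.000187).

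The promoters of a few of these genes are shown because SREBP target genes typically carry a sterol regulatory element (SRE) with an NF-Y box or a GC box close by, so that genes that fell can be set beside genes that did not. The windows come from RefSeq (GRCm38.p6) and run from 250 bases before to 50 bases after an annotated start. Both strands were searched for TCACNCCAC (an SRE core), CCAAT (the NF-Y box) and GGGCGG (the GC box). Of the 33 genes 25 had a window, and Fdps, Fdft1, Sqle, Stard4, Scd1, Scd2, Fads1 and Abcg1 had none. Capitals mark the SRE and the NF-Y boxes, which read ATTGG where the box is on the other strand. Hmgcs1 (chr13:119690101-119690400, plus strand) and Insig1 (chr5:28071162-28071461, plus strand) fell, and Ebp (chrX:8193463-8193762, minus strand) did not pass the test.
Hmgcs1: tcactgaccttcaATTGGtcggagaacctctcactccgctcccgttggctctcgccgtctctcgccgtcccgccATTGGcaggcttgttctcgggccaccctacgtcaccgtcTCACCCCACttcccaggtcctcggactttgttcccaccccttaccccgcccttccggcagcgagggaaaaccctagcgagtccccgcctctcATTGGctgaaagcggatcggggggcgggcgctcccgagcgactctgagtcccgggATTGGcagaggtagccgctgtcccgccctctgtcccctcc
Insig1: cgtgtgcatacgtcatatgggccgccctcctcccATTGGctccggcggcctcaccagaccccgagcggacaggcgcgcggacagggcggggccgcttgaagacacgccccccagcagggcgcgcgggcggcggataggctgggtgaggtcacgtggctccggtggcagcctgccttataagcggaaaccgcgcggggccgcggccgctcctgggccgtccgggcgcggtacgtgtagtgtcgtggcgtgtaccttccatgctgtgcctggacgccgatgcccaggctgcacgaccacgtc
Ebp: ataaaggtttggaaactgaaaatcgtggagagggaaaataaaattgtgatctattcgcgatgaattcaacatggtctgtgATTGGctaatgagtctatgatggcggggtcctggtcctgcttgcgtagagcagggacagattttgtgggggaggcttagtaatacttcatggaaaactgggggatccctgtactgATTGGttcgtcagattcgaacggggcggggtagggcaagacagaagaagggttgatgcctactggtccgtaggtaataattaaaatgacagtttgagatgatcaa

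The SRE letters stood in the window of 1 of the 25 genes, Hmgcs1, with the first base at position -137 counted from the start as 0, and in 1.44% of the 27025 genes with a window. With 1 mismatch allowed they stood in 12 of the 25 (48%), against 26.7% of all genes. An NF-Y box stood in 19 of the 25 (76%), against 41.1% of all genes, and a GC box in 19 of the 25, against 38.2%. All genes here are those with a window, whether tested or not, and they were not matched for base composition. Whether the higher shares are particular to these genes was not tested. By role, NF-Y boxes were found for 13 of 14 sterol enzymes, 3 of 3 regulators, 3 of 6 fatty acid enzymes and 0 of 2 efflux genes. GC boxes were found for 13 of 14, 3 of 3, 2 of 6 and 1 of 2. Hmgcs1 held 4 NF-Y boxes, Insig1 held 1, and Ebp, whose counts overlapped between the groups, held 2. A match is a description of these letters and not of a bound site.

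Fatty acid synthesis followed the same direction for part of its enzymes: 6 of 9 fell and 3 did not pass the test, with a median log2 fold change of -0.50. The genes that fell were those that make and desaturate saturated chains. Acly, which yields cytosolic acetyl-CoA from citrate, averaged 258 ± 31.3 counts with midkine and 359 ± 16.8 counts in controls (SD), a log2 change of -0.49 (SE 0.10, limma adjusted p = 0.00049). Acaca, the carboxylase that makes malonyl-CoA, averaged 101 ± 8.31 counts with midkine and 143 ± 18.4 counts in controls (SD), a log2 change of -0.50 (SE 0.14, limma adjusted p = 0.00434). Fasn, the synthase that builds palmitate, had counts of 637, 591 and 587 in the midkine libraries, against 1073, 1077 and 1156 in the control libraries. The midkine libraries lay close together, far below the controls, with a log2 change of -0.86 (SE 0.08, limma adjusted p = 2.63e-09).

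Elovl6, which lengthens palmitate towards stearate, had counts of 63.1, 30.2 and 46.4 in the midkine libraries, against 108, 110.1 and 105 in the control libraries. Control libraries were nearly equal, midkine libraries varied more, and the log2 change was -1.25 (SE 0.20, limma adjusted p = 1.18e-05), the lowest of all 33 genes. Scd1 and Scd2, neighbouring genes on chromosome 19 (GRCm38, 44394455 to 44407879 on the minus strand and 44293674 to 44306864 on the plus strand), encode the desaturases that make oleate and palmitoleate. Scd1 had counts of 41.7, 67.8 and 52.5 in the midkine libraries, against 102, 104 and 103 in the control libraries. Scd2 had counts of 746, 758 and 704 in the midkine libraries, against 1446, 1289 and 1358 in the control libraries. In either gene the groups were well apart, with a log2 change of -0.95 (SE 0.17, limma adjusted p = 6.99e-05) for Scd1 and -0.89 (SE 0.08, limma adjusted p = 1.26e-09) for Scd2.

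The elongase and desaturases of polyunsaturated chains did not pass the test. Elovl5, which lengthens polyunsaturated fatty acids, had counts of 374, 299 and 295 in the midkine libraries, against 354, 329 and 342 in the control libraries. Midkine replicate 1 was above all controls and the other two libraries below them, and the log2 change was -0.09 (SE 0.10, limma adjusted p = 0.502) with a 95% interval of -0.30 to 0.12. Fads1, a front-end desaturase, had counts of 284, 337 and 291 in the midkine libraries, against 321, 315 and 348 in the control libraries, a log2 change of -0.11 (SE 0.10, limma adjusted p = 0.382) with an interval of -0.32 to 0.09. Fads2, its neighbour on chromosome 19 and the partner desaturase, had counts of 23.7, 8.25 and 15.1 in the midkine libraries, against 12.3, 18.7 and 35.4 in the control libraries. Its low counts varied more than 2-fold within each group, and the log2 change of -0.46 (SE 0.37, limma adjusted p = 0.344) had an interval of -1.22 to 0.31. Scaled to total counts, Elovl5 (-0.35, adjusted p = 0.00703) and Fads1 (-0.37, adjusted p = 0.00622) were called lower, with the median of all genes at -0.26 on that scale. Over all settings the adjusted p was 0.00703 to 0.864 for Elovl5 and 0.00622 to 0.678 for Fads1.

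The window of Fasn (chr11:120824498-120824797, minus strand) is shown because Fasn is a well-studied SREBP target, and it held 3 NF-Y boxes and no GC box. A pair of its NF-Y boxes on opposite strands overlapped.
Fasn: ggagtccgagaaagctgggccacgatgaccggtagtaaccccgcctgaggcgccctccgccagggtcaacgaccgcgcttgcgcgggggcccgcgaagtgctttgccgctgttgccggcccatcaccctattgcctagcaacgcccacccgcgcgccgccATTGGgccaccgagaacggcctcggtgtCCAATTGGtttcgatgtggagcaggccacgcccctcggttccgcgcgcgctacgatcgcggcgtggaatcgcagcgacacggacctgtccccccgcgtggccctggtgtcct

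Cholesterol export was divided: both transporters fell while Nr1h3, the gene of the receptor LXR alpha, rose. Nr1h2, the gene of the receptor LXR beta, is outside the genes chosen here and did not pass the test. It averaged 160 ± 38.6 counts with midkine and 135 ± 9.24 counts in controls (SD), more than Nr1h3 in either group. Its groups overlapped, with a log2 change of 0.22 (SE 0.14, limma adjusted p = 0.228). Abca1, the transporter that loads cholesterol onto lipid-poor apolipoprotein A-I, had counts of 163, 135 and 159 in the midkine libraries, against 169, 236 and 228 in the control libraries. The highest midkine library was just under the lowest control library, and the log2 change was -0.46 (SE 0.13, limma adjusted p = 0.00633). That call was lost without control replicate 2 (-0.37, adjusted p = 0.0530) and without the variance trend (adjusted p = 0.0616), within a range of 0.000106 to 0.0616 over all settings. Abcg1, which exports cholesterol to high-density lipoprotein, had counts of 89.02, 94.4 and 101 in the midkine libraries, against 173, 155 and 189.7 in the control libraries. The groups were clearly apart, with a log2 change of -0.85 (SE 0.13, limma adjusted p = 6.89e-06).

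Nr1h3, which encodes LXR alpha, had counts of 47.3, 49.5 and 46.4 in the midkine libraries, against 10.4, 26.1 and 22.9 in the control libraries. Midkine libraries were nearly equal and each was above every control library, so the mean with midkine was 241% of the control mean. The log2 fold change was 1.32 (SE 0.27, limma adjusted p = 0.000337), and 1.07 when libraries were scaled to total counts. Its counts were low, with a mean under the stricter minimum of 50. LXR alpha is also abundant in macrophages, whose markers moved in both directions as given above, and their part in this rise was not tested. Of its 2 windows the upstream one (chr2:91195067-91195366, minus strand) is shown because Nr1h3 was the gene that rose. Neither window held an SRE, an NF-Y box or a GC box. The windows overlap (the other is chr2:91194986-91195285), and the 1 SRE with 1 mismatch in each is the same stretch. The windows of Acaca and Elovl6, which fell, held 0 of each motif as well. The Acaca window (chr11:84195188-84195487, plus strand) lies inside the gene, which starts at 84129672. Both Nr1h3 windows also lie inside their gene (91184061 to 91202834), so the outermost starts of these genes were not searched. Mvk, which did not pass the test, held 5 NF-Y boxes. In the windows searched, the lack of these motifs therefore does not set Nr1h3 apart from every gene that fell.
Nr1h3: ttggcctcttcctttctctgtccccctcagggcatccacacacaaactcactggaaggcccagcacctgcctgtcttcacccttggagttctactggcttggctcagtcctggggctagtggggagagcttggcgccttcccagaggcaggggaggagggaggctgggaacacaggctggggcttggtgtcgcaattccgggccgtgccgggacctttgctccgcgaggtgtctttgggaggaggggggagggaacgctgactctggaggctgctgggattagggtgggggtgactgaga

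**Figure D2:**
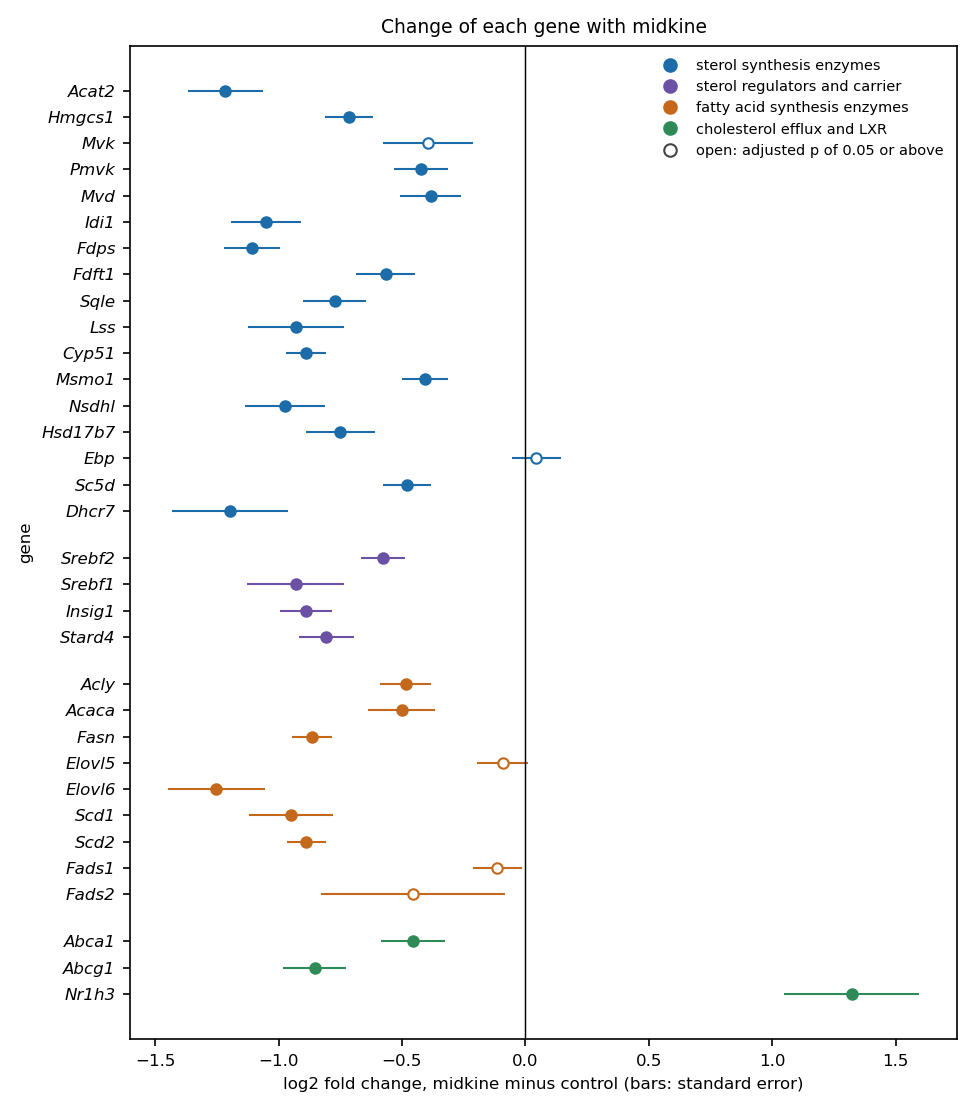
Log2 fold change of each of the 33 genes, midkine minus control, with bars for 1 standard error, grouped by role. Filled points passed the adjusted p threshold of 0.05 and open points did not; 27 filled points lie below 0, and Nr1h3 is the 1 filled point above it.

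Set side by side, the sterol enzymes had a median log2 fold change of -0.75 with 15 of 17 lower, the fatty acid enzymes -0.50 with 6 of 9 lower, and the efflux genes -0.46 with 2 lower and 1 higher of 3. The order of the sterol and fatty acid medians was not stable to single libraries: without control replicate 1 they were -0.64 for sterol and -0.79 for fatty acid enzymes, and without midkine replicate 1 they were -0.76 and -0.78. Summed over the 17 sterol enzymes, counts were 3469 to 3750 with midkine and 5709 to 5822 in controls. Summed over the 9 fatty acid enzymes they were 2321 to 2556 with midkine and 3744 to 3946 in controls. The ratio of the sterol sum to the fatty acid sum was 1.47, 1.42 and 1.60 in midkine libraries, against 1.48, 1.52 and 1.45 in control libraries. These ratios averaged 1.49 ± 0.09 with midkine and 1.49 ± 0.04 in controls (SD) and overlapped. No shift between the summed counts of the 2 branches was therefore seen beyond the spread of the libraries. Such sums mostly reflect the genes with high counts, here Hmgcs1 and Cyp51 for sterols and Fasn and Scd2 for fatty acids. No library was low throughout: midkine replicate 1 was the highest of its group for 18 genes and the lowest for 8, and control replicate 1 the lowest of its group for 16 and the highest for 11.

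The direction of each role's median was the same under every scaling tried. Scaling to total counts moved the median of all genes to -0.26, and relative to it the medians were -0.74 for sterol enzymes, -0.84 for regulators, -0.49 for fatty acid enzymes and -0.45 for efflux genes. In that scaling 16 of 17 sterol enzymes and 8 of 9 fatty acid enzymes were lower, while over all genes 1283 were higher and 4817 lower.

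**Figure D3:**
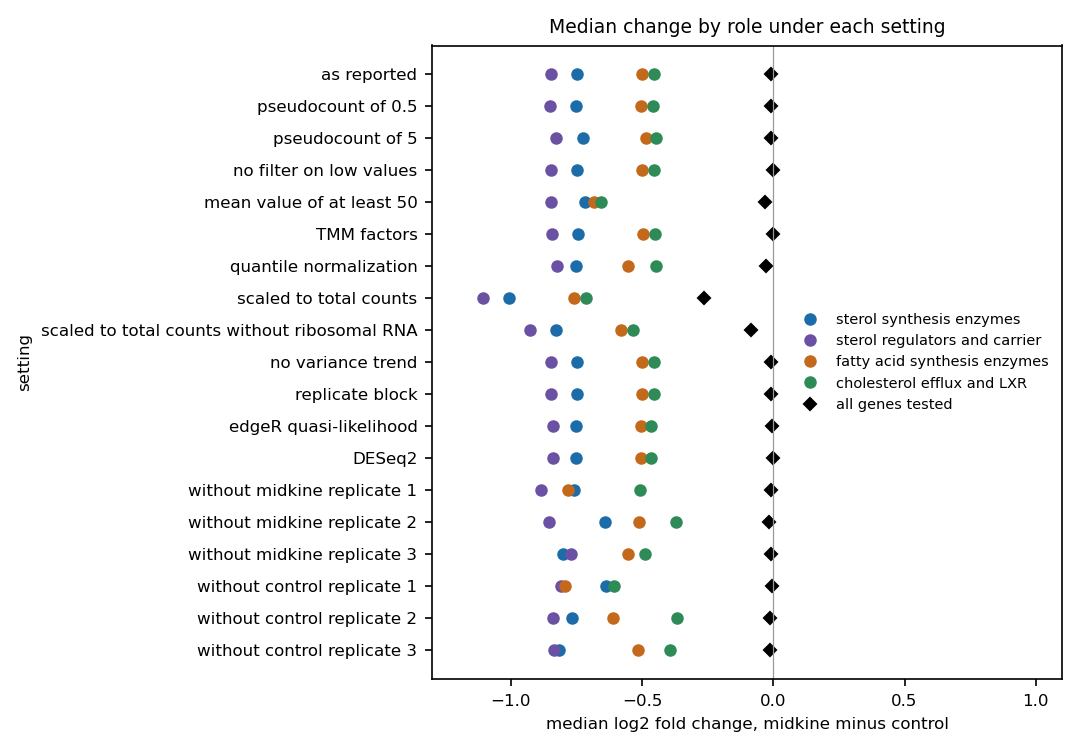
Median log2 fold change, midkine minus control, of each role and of all genes tested, as reported and under each other setting. All 4 role medians lie left of the median of all genes in every row, and the fatty acid median is lower than reported at a mean value of at least 50 and without midkine or control replicate 1.

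Other genes of the same pathways, outside the 33, moved in both directions. The counts of each list below stand beside 21.8% lower and 20.9% higher over all genes tested. Scaled to total counts, 4817 of the 11844 genes tested were lower and 1283 higher. Of 5 further sterol enzymes 3 fell and 0 rose. Lbr, a sterol reductase that also anchors chromatin at the nuclear envelope, fell, at a log2 change of -0.40 (limma adjusted p = 0.000314), and Acat1, the mitochondrial thiolase, had -0.29 (limma adjusted p = 0.0372), a call that quantile normalization ended.

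Of 9 tested genes that process SREBP or control its processing 4 fell and 0 rose, with a median log2 fold change of -0.24. Scap, the escort of SREBP to the Golgi, had counts of 100.3, 118 and 129 in the midkine libraries, against 222, 216 and 201 in the control libraries. Its midkine libraries were all well below its control libraries, with a log2 change of -0.88 (SE 0.12, limma adjusted p = 2.22e-06). Erlin1 (log2 change -0.45, limma adjusted p = 0.00554) and the ubiquitin ligase Rnf139 (log2 change -0.34, limma adjusted p = 0.0191), which take part in sterol-dependent degradation at the endoplasmic reticulum, also fell. The call of Rnf139 did not hold in every other setting.

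Uptake and lysosomal release of cholesterol was split, with 4 of 10 genes higher and 3 lower. The median log2 fold change was 0.15, and -0.10 when scaled to total counts. Lipa, the lysosomal lipase that frees cholesterol from its esters, had counts of 1126, 1190.4 and 1181 in the midkine libraries, against 449.6, 533 and 508 in the control libraries. Here every midkine library was more than double the control mean, with a log2 change of 1.23 (SE 0.08, limma adjusted p = 9.2e-12). Vldlr (log2 change 1.56, limma adjusted p = 5.5e-06), a receptor for triglyceride-rich lipoproteins, rose as well.

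LXR targets and the receptor LXR beta were also divided, 4 of 8 higher and 2 lower, with a median log2 fold change of 0.34, and 0.08 when scaled to total counts. Lpl, lipoprotein lipase, averaged 5822 ± 144 counts with midkine and 2639 ± 301 counts in controls (SD), with a log2 change of 1.15 (limma adjusted p = 1.65e-11). Arl4c, a small GTPase, rose, at a log2 change of 0.67 (limma adjusted p = 6.81e-08), as did Smpdl3a, a phosphodiesterase, at a log2 change of 1.26 (limma adjusted p = 2.33e-06). Lpcat3, which inserts polyunsaturated chains into phospholipids, fell, at a log2 change of -0.66 (limma adjusted p = 0.000273). Abca1 and Abcg1, LXR targets too, fell as given above.

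Genes of cholesterol esters and lipid droplets were mostly higher, 6 of 9, with 1 lower, but 2 were higher when scaled to total counts. Plin2, the droplet coat protein, was the gene that fell, with counts of 654, 642 and 564 in the midkine libraries, against 1035, 1231 and 1171 in the control libraries. Its log2 change was -0.88 (SE 0.09, limma adjusted p = 7.44e-09), opposite to Plin3, another coat protein, at a log2 change of 0.71 (limma adjusted p = 3.12e-06). Nceh1, a cholesterol ester hydrolase, rose (log2 change 0.55, limma adjusted p = 4.09e-05), as did Soat1, the enzyme that esterifies cholesterol (log2 change 0.44, limma adjusted p = 0.00025), whose call was lost when scaled to total counts.

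Further fatty acid synthesis genes gave 5 lower (26.3%), 2 higher (10.5%) and 12 not called of 19, with a median log2 fold change of -0.10. Scaled to total counts 11 were lower and 1 higher, where 4817 of all 11844 genes were lower and 1283 higher. Hsd17b12, the keto reductase of the elongation cycle, averaged 759 ± 98.3 counts with midkine and 1080.3 ± 19.7 counts in controls (SD), a log2 change of -0.52 (limma adjusted p = 3.55e-05). Me1, which supplies NADPH, rose, with 113 ± 8.04 counts with midkine and 61.5 ± 7.19 counts in controls (SD) and a log2 change of 0.87 (limma adjusted p = 4.62e-05). The acyl-CoA synthetases Acsl3 (log2 change -0.67, limma adjusted p = 0.000237) and Acsl5 (log2 change -0.44, limma adjusted p = 0.000719) fell. Of the oxysterol enzymes Cyp27a1 was tested and fell, at a log2 change of -0.40 (limma adjusted p = 0.024), a call that did not hold in every other setting.

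**Figure D4:**
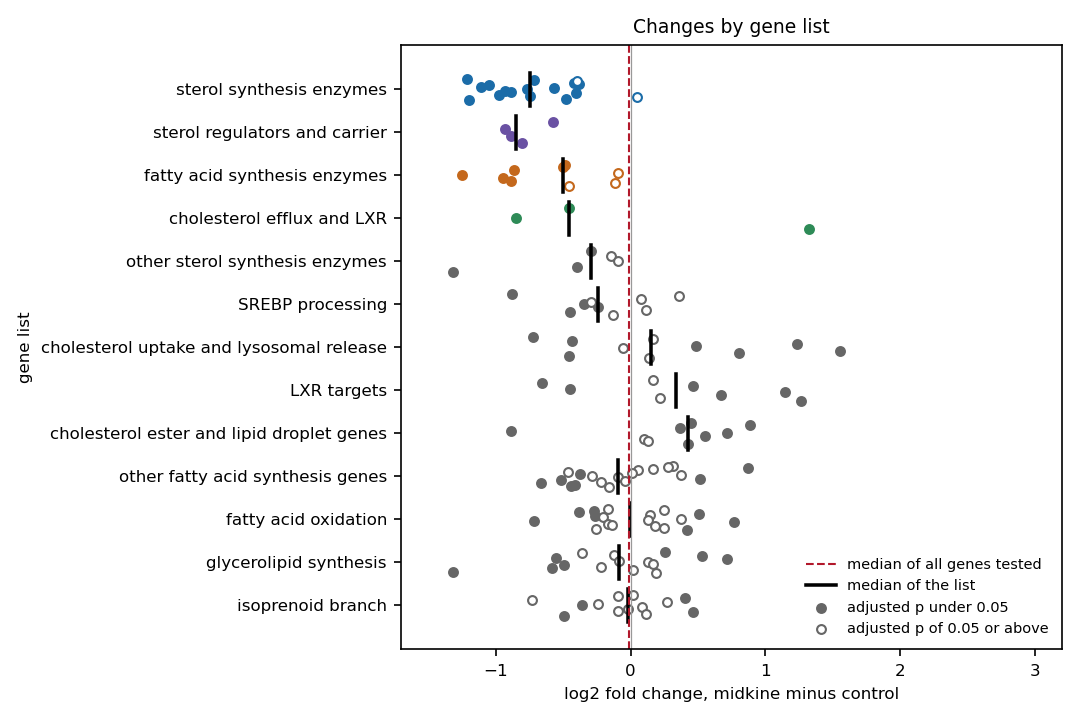
Log2 fold change of each gene, midkine minus control, by gene list, with black bars for the median of the list and a dashed line for the median of all genes tested (-0.01). Sterol enzymes and their regulators lie left of the line except Ebp, and the uptake, LXR target and lipid droplet lists have genes on either side.

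The deposited counts do not state how strand or shared sequence was handled, which bears on a few of the 33 genes. Exons of Fdft1, Cyp51 and Srebf1 overlap those of Ctsb, Akap9 and Rai1 on the other strand. Ctsb rose, with a log2 change of 0.38 (limma adjusted p = 0.000664), while Fdft1 fell. Akap9 (log2 change 0.03, limma adjusted p = 0.785) and Rai1 (log2 change -0.14, limma adjusted p = 0.464) did not pass the test. In the last 500 bases of their transcripts more than 10% of 50-base words were shared with other genes for Acat2 (20.9%), Acaca (22.4%), Idi1 (43.2%) and Fdps (74.0%), so their counts are less certain; none of the genes that share them has a row in the table.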

How the data were processed

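RNA of 3 midkine and 3 control cultures was made into 3′ end libraries with the QuantSeq FWD kit. The authors deposited a signal table in which each library's reads had been divided by its own size factor. The submitters' processing notes list HTSeq, DESeq2, SAMtools 0.1.19, Bowtie 1.0.0, TopHat2 2.0.10 and FastQC 0.11.0, and the builds mm10 and GRCm38. For annotation and strand setting nothing is given in the sources used here. The mean RNA integrity number was 8 (range 5 to 10), per the labels' protocols. All values (100%) were whole multiples of the value of 1 read, 0.916 to 1.13 by library, within 1e-06 reads.

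Genes with a mean value of at least 10 (11844 of 14912) were tested with limma 3.58.1 under R 4.3.3, with a variance trend, on log2(value + 1). P-values were adjusted over all of them by Benjamini-Hochberg, with a threshold of 0.05. This scale understates changes of low genes. edgeR 4.0.16 and DESeq2 1.42.0 ran on the recovered reads as alternatives, beside other pseudocounts, minimums, scalings, a replicate block and leaving out each library. The fit was tested on simulated data. Tables were summarised with Python 3.11.15 and pandas 2.3.3. Positions came from GENCODE vM21 and promoters from RefSeq.

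All 33 genes are named. Of other lists up to 4 called genes with the smallest p are named, and a few of those are not reported here. The genes and lists were chosen with earlier results of these data known, so their direction is not independent evidence.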

Additional observations from a re-analysis of the deposited data

How the results depend on the processing

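Of the 27 genes that fell, 23 did so in all 19 alternatives, and Lss and Dhcr7 did in the 18 that tested them, since both are under a mean value of 50. The exceptions were Mvd and Abca1. Over the 33 genes 609 of 623 values kept direction and call, 5 lost the call, 6 gained it and 3 turned. The turned values were those of Ebp: -0.21 scaled to total counts, -0.034 scaled to total counts without ribosomal RNA, and -0.0028 without control replicate 1, within a range of -0.0028 to 0.073 when each library was left out. At a mean value of at least 50, 0 of the genes were higher, because Nr1h3 falls under that minimum. Mvk was called lower scaled to total counts (-0.65), without ribosomal RNA in the totals (-0.47), without control replicate 1 (-0.51) and at a threshold of 0.1. The median of the fatty acid enzymes was -0.68 at a mean value of at least 50, -0.78 without midkine replicate 1 and -0.79 without control replicate 1, in the last 2 cases below that of the sterol enzymes. The median of all genes tested was -0.26 scaled to total counts and -0.086 without ribosomal RNA in the totals. For Ebp, Mvk and the medians of the fatty acid enzymes the cause was not tested. With the replicate number as a block, 27 genes were lower and 1 higher, and 15 sterol enzymes were lower. Deviations of same-numbered libraries correlated at -0.01, 0.03 and -0.06, so no shared deviation was seen. A weak effect of a shared origin could be missed in this way, so whether the numbers pair the samples is not known.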

Other observations

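The branch that leaves the pathway at farnesyl diphosphate was not called in one direction. Of 13 isoprenoid genes 2 rose (15.4%), 2 fell (15.4%) and 9 did not pass the test, with a median log2 fold change of -0.02. Over all genes tested 20.9% rose and 21.8% fell. Rabggtb, a subunit of the enzyme that prenylates Rab proteins, averaged 248 ± 25.8 counts with midkine and 179 ± 10.1 counts in controls (SD), a log2 change of 0.47 (limma adjusted p = 0.00141). Nus1, a subunit of the dolichol synthase, rose, with a log2 change of 0.40 (limma adjusted p = 0.00953), though its groups overlapped. Fnta, the shared subunit of the farnesyl and geranylgeranyl transferases, fell, at a log2 change of -0.36 (limma adjusted p = 0.0168). Rce1, the protease that trims prenylated proteins, fell at a log2 change of -0.50 (limma adjusted p = 0.0367), with overlapping groups. None of the calls of Rabggtb, Nus1, Fnta and Rce1 held in every other setting. Scaled to total counts 0 were higher and 4 lower, where 1283 of all 11844 genes were higher and 4817 lower.

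Fatty acid oxidation had 3 of 18 genes higher (16.7%) and 4 lower (22.2%), with 11 not called. These shares were near the 20.9% higher and 21.8% lower of all genes tested. Slc25a20, the carnitine carrier of the mitochondrial membrane, rose, with a log2 change of 0.77 (limma adjusted p = 8.89e-05), as did Acadvl, the dehydrogenase of very long chains, with 0.50 (limma adjusted p = 0.00152). Acaa2, the thiolase that ends the cycle, was at a log2 change of -0.71 (limma adjusted p = 0.000391), and Acadl at a log2 change of -0.39 (limma adjusted p = 0.00301). The calls of Acadvl and Acadl did not hold in every other setting. Glycerolipid synthesis gave 3 higher, 4 lower and 8 not called of 15. Cds1, which makes CDP-diacylglycerol, averaged 30.3 ± 6.797 counts with midkine and 77.3 ± 20.1 counts in controls (SD), a log2 change of -1.32 (limma adjusted p = 2.26e-05), while Lpin1, a phosphatidate phosphatase, rose, with a log2 change of 0.71 (limma adjusted p = 7.65e-06). Scaled to total counts, oxidation had 1 higher and 8 lower, and glycerolipid synthesis 2 higher and 8 lower. On that scale 1283 of all 11844 genes were higher and 4817 lower.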
